A study of Mus musculus with 30 samples.

Results

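The Zfp genes are a large group of mouse genes for zinc finger proteins that share a numbered name and not a common function. In the RNA-seq table of differentiating and re-seeded iPSCs, 331 of 22477 genes had a name made of Zfp and a number, Zfp42 included. The 200 genes described here are those of them that reached at least 5 FPKM (fragments per kilobase of transcript, scaled to the mapped fragments of a library) in at least 1 of the 15 conditions. Zfp42 (Rex1), a marker of the naive state, was left out. Since measured values chose the 200 genes, their levels are given as a description and without a test.

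The cells were mouse secondary iPSCs with dox-inducible OSKM transgenes (Oct4, Sox2, Klf4 and cMyc), GFP at the endogenous Nanog locus and a nuclear RFP that is always on. All conditions came from these cells, which were maintained on CF1 mouse embryonic fibroblast feeders in serum with LIF. By the study's methods, the cells were then moved to serum-free N2B27 medium with 2i/LIF for at least 24 h. They were seeded on gelatin before withdrawal, which took place in N2B27 without 2i/LIF. The study collected RNA at 0, 24, 36, 48, 60, 72 and 96 h after 2i/LIF was withdrawn, and from cells withdrawn for 0, 24, 48 or 96 h and then moved to serum/LIF. Those cells spent 48 h there either without (–dox) or with (+dox) 2 µg/ml doxycycline, which switches on OSKM. Each of the 15 conditions had 2 replicates, but the table holds 1 combined value per condition, so no value has an error and no difference could be tested. The line is a single engineered system, and the values describe mixed populations. In what follows, "higher" and "lower" in a count mean a plain ratio of at least 2 where the larger of both values is 1 FPKM or more.

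C2H2 zinc fingers are short DNA-binding or RNA-binding modules, and proteins with many of them in a row can read long DNA sites. In the largest mammalian class the fingers follow a KRAB domain, which recruits TRIM28 (KAP1). TRIM28 brings the H3K9 methyltransferase SETDB1, HP1 proteins and histone deacetylases to the bound site. In pluripotent cells this system silences endogenous retroviruses and keeps DNA methylation at imprinted loci. Zfp genes without KRAB include transcription factors of many lineages and proteins that act on RNA, on ribosomes or in ubiquitin and SUMO transfer.

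By the Gencode M21 annotation of mm10, 198 of the 200 genes were protein coding and 2, Zfp125 and Zfp640, were pseudogenes. A KRAB A box was found in the protein of 89 genes and not in that of 109. Proteins with KRAB had a median of 12 C2H2 fingers, against 7 in those without, and the highest number was 36, in Zfp142. At least 10 fingers were present in 97 proteins, while 8 (Zfp185, Zfp330, Zfp36, Zfp365, Zfp503, Zfp703, Zfp839 and Zfp935) had none that met the standard spacing. The genes were unevenly spread over the genome. Chromosome 7 held 49 of the 200, of which 24 had KRAB, chromosome 17 held 26 with 20 KRAB genes, and chromosome 13 held 15 with 11 KRAB genes. In all, 6 runs of at least 3 genes next to each other in the annotation held 21 of the genes. The longest, at chr9:20345136-20605409 (mm10), held Zfp560, Zfp26, Zfp426, Zfp266 and Zfp846, all with KRAB. Its members did not move as a block, since Zfp560 was higher between 24 and 60 h, Zfp26 stayed within 2-fold and Zfp846 was lower at 96 h. In none of the 6 runs did at least 3 neighbours share a profile other than a stable one. Some family members are near-identical copies. In 29 genes, 17 of them with KRAB, over 20% of the 50-base words of the transcripts also stood in transcripts of another gene, and their values are uncertain for that reason.

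Most of the genes were expressed at low or middle levels. The highest value over the 15 conditions was under 10 FPKM in 79 genes, between 10 and 50 in 110 and at least 50 in 11. At least 5 FPKM was measured in every condition for 78 genes and in 1 condition only for 20, and those 20 had to differ between conditions to be counted. Just inside the limit were Zfp941, with a highest value of 5.02 FPKM at 48 h, and Zfp658, with 5.04 at 24 h. Just outside it were Zfp382 at 4.98 in the 48 h +dox condition and Zfp873 at 4.99 at 24 h. A further 25 Zfp genes stayed under 1 FPKM everywhere. The 5 genes with the highest medians had no KRAB, other than Zfp57. Zfp207, whose protein (BuGZ) loads a spindle checkpoint protein at kinetochores, ranged from 73.7 to 143 FPKM with a median of 103. Zfp106, an RNA-binding protein, ranged from 43.2 to 145 with a median of 99.4. Zfp57 ranged from 18.4 to 341 with a median of 83.5, Zfp64 from 38.9 to 84.7 with a median of 52.5, and Zfp414 from 40.9 to 77.6 with a median of 50.8. Zfp57 thus spanned a far wider range than the others, all of which stayed within 2-fold over the timepoints of withdrawal. Zfp106 and Zfp414 are among the genes that share over 20% of their words with another gene.

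The table as a whole gives the frame for these values. The summed level of 8 pluripotency markers went from 1598 FPKM at 0 h to 95.4 at 96 h, with Nanog at 227 and 14.5 FPKM. Most fibroblast markers that feeders express stood higher at 0 h than later in withdrawal. At 24 h, 10 of 11 such genes were lower than at 0 h. The other, Thy1, went the opposite way, at 4.01, 8.10 and 17.7 FPKM at 0, 24 and 48 h, and is part of the later sums. The summed level of the 11 genes was 799 FPKM at 0 h, 74.3 at 24 h and between 21.7 and 40.8 from 36 to 96 h. It was 6.65 in the cells re-seeded at 0 h –dox, where Twist2 and Lum were at 0, and 149.9 in the cells re-seeded at 96 h –dox. Most of the last sum came from Col1a1, at 33.2 FPKM, and Col1a2, at 86.0. Steps between low values gave a relative depth that was higher in the conditions re-seeded from 0 and 24 h than in the rest: a 2 kb gene at 1 FPKM stood at between 85.9 and 99.8 steps there and between 29.3 and 46.9 elsewhere. In bulk RNA, a lower level of a gene can come from fewer cells of a type or from less RNA per cell, and these cannot be told apart.

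Over the 7 timepoints of withdrawal, 97 of the 200 genes (48.5%) stayed within 2-fold, against 46.7% of all 11154 genes that reached 5 FPKM. A transient profile has a value between 24 and 72 h at least 2-fold above, or below, both ends. A falling profile, with the 96 h value at least 2-fold below the 0 h value and no transient peak or trough, was the most frequent of the others. It held 35 genes (17.5%), against 10.7% of all genes, while 20 genes (10%) had a rising profile, against 10.6%. Transient rises (6 genes, 3%) and transient falls (9 genes, 4.5%) made smaller shares than over all genes (5.39% and 10.5%), and 33 genes (16.5%) met none of these rules. The falling genes were mostly KRAB genes. Of the 89 KRAB genes 24 (27%) fell over the timepoints and 3 (3.37%) rose, whereas of the 109 genes without KRAB 9 (8.26%) fell and 17 (15.6%) rose. The pseudogenes Zfp125 and Zfp640 make up the rest of the falling group. The highest value of KRAB genes stood at 24 h in 27 genes, at 0 h in 18, at 48 h in 18 and at 96 h in 9. At 36, 60 and 72 h it stood in 7, 2 and 8. Over all 200 genes, the highest value stood at 24 h in 47, at 0 h in 37, at 48 h in 27 and at 96 h in 39.

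**Figure D1:**
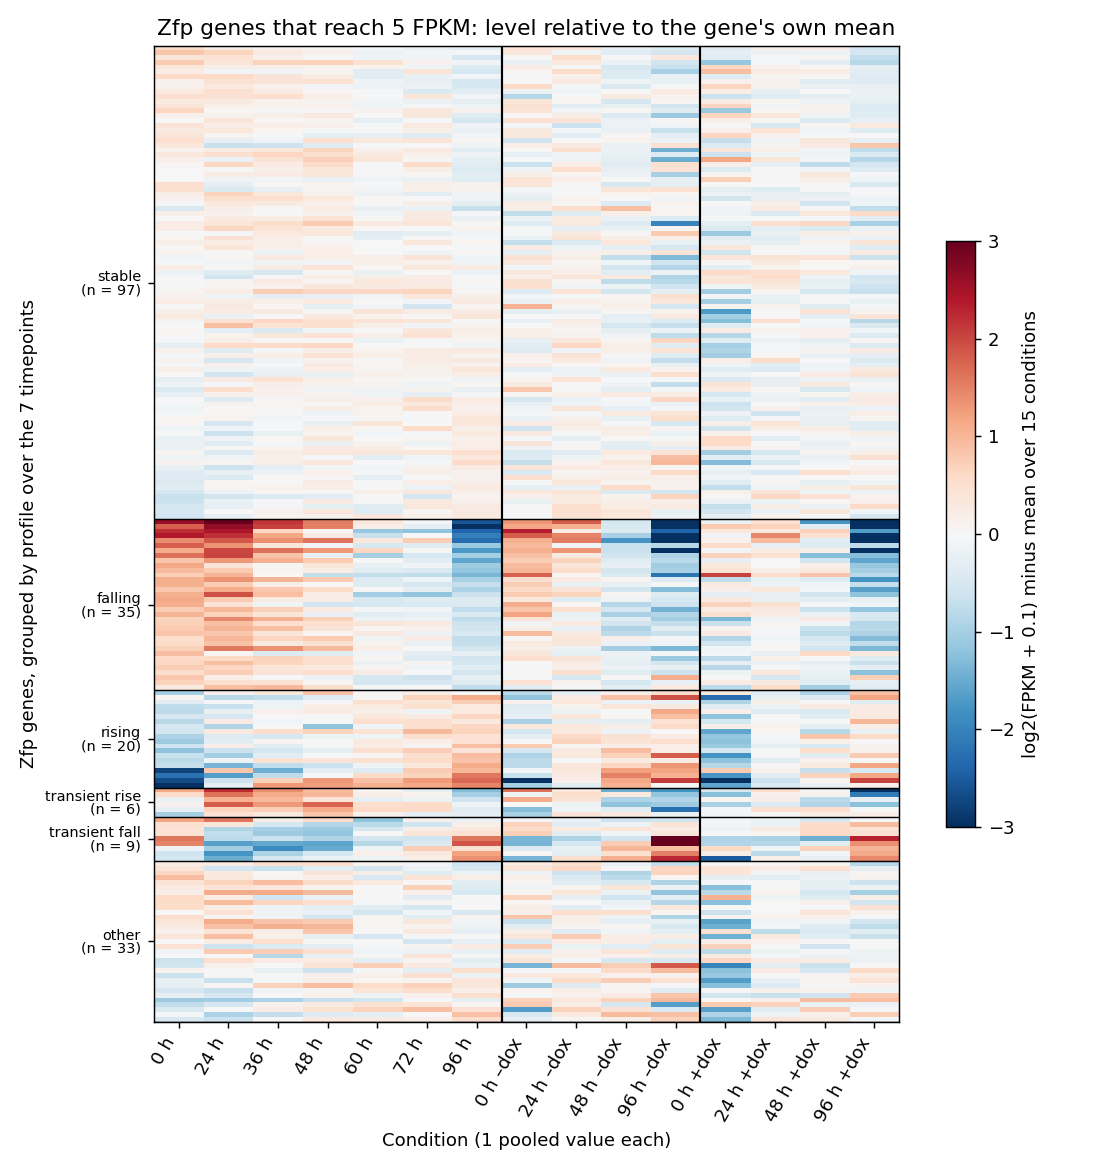
Level of each of the 200 Zfp genes (rows, grouped by profile over the 7 timepoints) in the 15 conditions (columns), as log2(FPKM + 0.1) minus the gene's own mean, with red for above and blue for below the mean. The 35 falling genes are red at 0 and 24 h and blue at 96 h, and most are blue again in the 96 h re-seeded conditions, while the 97 stable genes stay pale over the 7 timepoints.

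The counts grew with time. At 24 h, 11 of the 200 genes were higher than at 0 h and 6 were lower, where the share of all genes that reached 5 FPKM was 6.76% higher and 11.3% lower. At 36 h, 12 were higher and 14 lower (all genes 9.57% and 13.3%). At 48 h the numbers were 14 and 16 (9.54% and 13.9%), at 60 h 14 and 24 (10.4% and 12.9%), at 72 h 20 and 28 (12% and 13.1%). At 96 h, 22 genes (11%) were higher and 38 (19%) lower, against 13.8% of all genes in each direction. These comparisons share the 0 h condition. The median log2 ratio of 96 to 0 h, with 0.1 FPKM added to each value, was -0.09 over the 200 genes and -0.03 over all genes.

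The shares of lower and higher genes in the 2 classes of protein moved apart from 60 h on. The classes also differed in level. At 0 h the median was 7.23 FPKM over KRAB genes, 9.46 over genes without KRAB and 14.3 over all genes that reached 5 FPKM. The part of this difference in the shares was not tested. At 96 h, 27 of the 89 KRAB genes (30.3%) were lower and 3 (3.37%) higher, with a median log2 ratio of -0.44. Of the 109 genes without KRAB, 9 (8.26%) were lower at 96 h and 19 (17.4%) higher, with a median of 0.12. At 48 h the classes had been close, with 8 KRAB genes lower and 5 higher, and 8 genes without KRAB lower and 9 higher. At 60 h, 14 KRAB genes (15.7%) and 8 genes without KRAB (7.34%) were lower. At 72 h, 17 KRAB genes (19.1%) were lower and 4 (4.49%) higher, and 9 genes without KRAB (8.26%) were lower and 16 (14.7%) higher. Without the KRAB genes that share over 20% of their words, 18 of 72 were lower at 96 h and 3 higher. Among the 64 KRAB genes with at least 5 FPKM at 0 h, 24 were lower at 96 h and 0 higher. Of all 8845 genes at that level, 15.0% were lower at 96 h and 5.75% higher. Asking for 5 FPKM at 0 h favours falls over rises in both sets. KRAB genes under other names (31 genes that reached 5 FPKM) were lower at 96 h in 26 and higher in 1. Their median log2 ratio was -1.92. The 207 other C2H2 genes without KRAB were lower at 96 h in 37 and higher in 32. The difference between the classes was not tested.

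**Figure D2:**
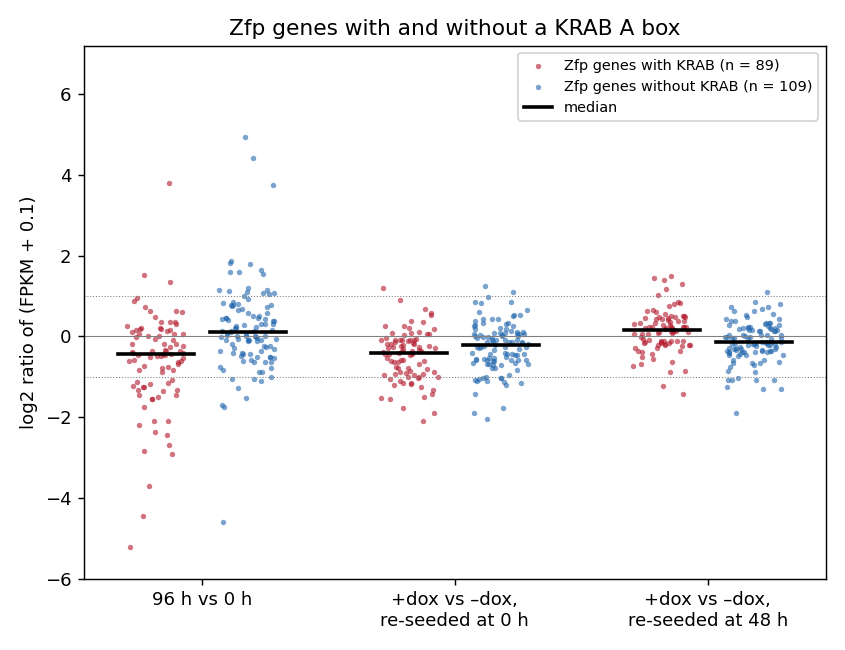
log2 ratio of each Zfp gene with (89, red) or without (109, blue) a KRAB A box for 96 h against 0 h of withdrawal and for +dox against –dox in cells re-seeded at 0 h and at 48 h; black bars are medians, dotted lines 2-fold, and the 2 pseudogenes are left out. At 96 h the KRAB genes reach much lower (median -0.44) than the others (median 0.12), at 0 h +dox both medians lie below 0 (-0.41 and -0.20), and at 48 h +dox the medians lie on either side of 0 (0.16 and -0.14).

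Zfp936, Zfp640, Zfp296 and Zfp819 were among the largest falls. Zfp936 (chr7:43114229-43192109), a KRAB gene with 11 fingers, was at 20.7, 34.2, 14.7, 9.59, 4.05, 3.16 and 0.461 FPKM at 0, 24, 36, 48, 60, 72 and 96 h. It was 44.9-fold lower at 96 h than at 0 h, and its highest value came at 24 h. Zfp640 (chr13:66669928-66698243), a transcribed processed pseudogene, followed the same course from 23.2 FPKM through 41.8 at 24 h to 0.646 at 96 h. Zfp296 (chr7:19577287-19580656), a zinc finger factor with 6 fingers linked to Oct4 expression and reprogramming, was at 56.1, 64.6, 18.6, 12.5, 5.43, 5.11 and 2.23 FPKM over the 7 timepoints. It was 25.1-fold lower at 96 h, with the main step between 24 and 36 h. Its transcripts share 14.5% of their words with the neighbouring gene Gemin7. Zfp819 (chr7:43607169-43618285), a KRAB gene linked to retroelement repression in pluripotent cells, was at 7.73, 6.63, 3.19, 1.65, 0.835, 1.38 and 0.257 FPKM. All but Zfp640 lie on chromosome 7.

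Of the 3 largest rises at 96 h, Zfp467 and Zfp608 had no KRAB and Zfp677 had one. Zfp467 (chr6:48427697-48445825), a 12-finger factor known from the choice between fat and bone cells, was at 0.948, 9.69, 28.6, 28.1, 24.4, 25.7 and 32.3 FPKM over the same 7 times. It was 34.0-fold higher at 96 h and had come close to its plateau by 36 h. Zfp608, a relative of Zfp609, was at 0.48, 2.32, 6.1, 9.09, 6.77, 9.01 and 12.3 FPKM, a 25.6-fold difference. Zfp423 (chr8:87661810-87959595), a 27-finger factor of neural and fat cell development that partners EBF proteins, was at 1.22, 15.6, 3.13, 7.22, 6.75, 15.1 and 17.8 FPKM. It was 12.8-fold higher at 24 h, lower again at 36 h, and 14.6-fold higher at 96 h, where it was highest of the 7 timepoints. The high 24 h level rests on 1 combined value. Among KRAB genes only Zfp677, Zfp867 and Zfp948 were higher at 96 h. Zfp677 (chr17:21383748-21399265) was at 0.336 FPKM at 0 h and 6.02 at 96 h, 17.9-fold higher, with intermediate values in order of time.

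**Figure D3:**
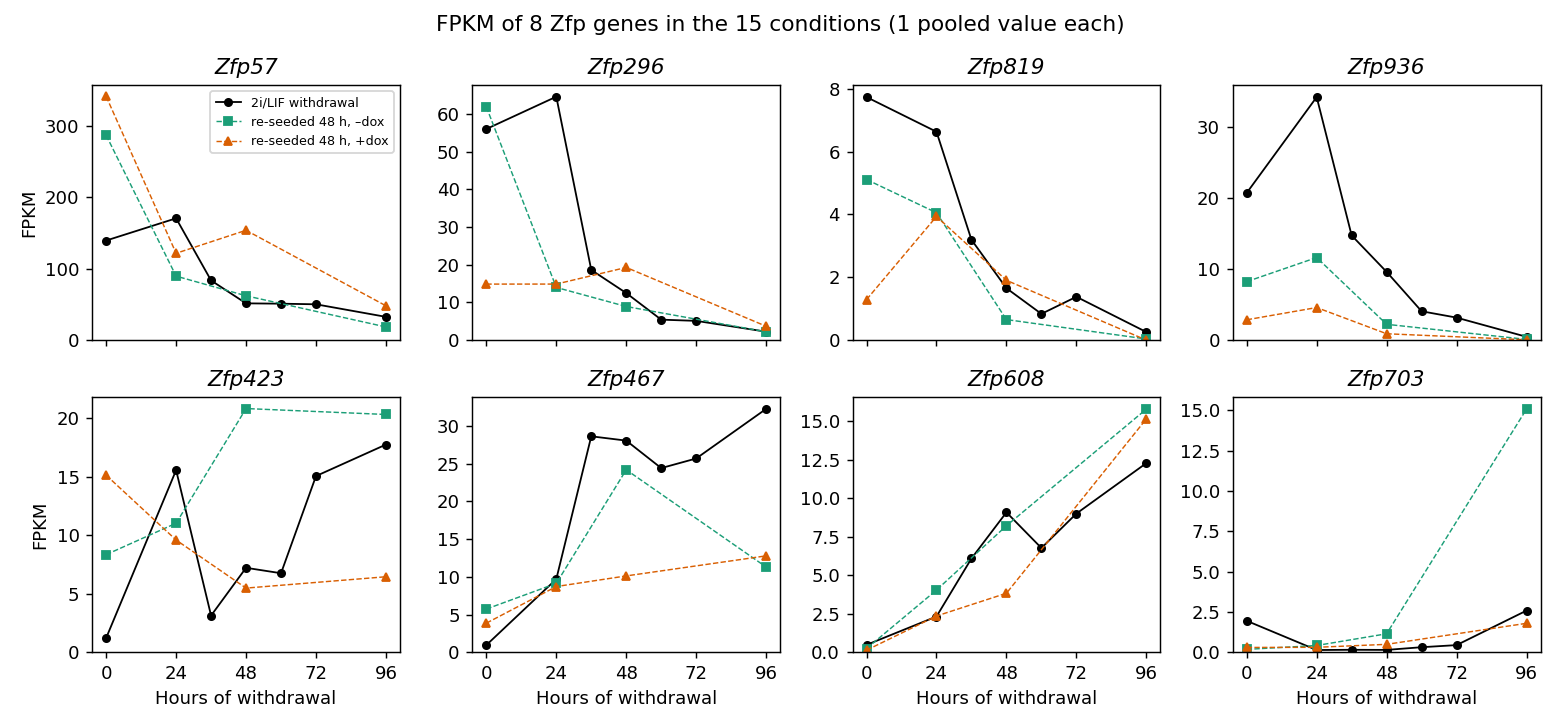
FPKM of 8 Zfp genes against hours of withdrawal, with the 7 withdrawal timepoints in black, the cells re-seeded for 48 h –dox in green and +dox in orange, each placed at the time of re-seeding; every point is 1 combined value and has no error. Zfp57, Zfp296, Zfp819 and Zfp936 end low at 96 h, Zfp423, Zfp467 and Zfp608 end high, and Zfp703 reaches 15.1 FPKM in the 96 h –dox condition alone.

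The 5′ ends of the genes also differed between the falling and rising groups. RefSeq windows of 300 bases on GRCm38.p6, from 250 bases before to 50 after a start site, matched 162 of the 200 genes by symbol, among them 28 falling and 18 rising ones. They were searched on both strands for 7 motifs. The GC box was searched as GGGCGG, the CCAAT box by its own letters, the E-box as CACGTG and the TATA box as TATAAA. The octamer was searched as ATTTGCAT, the STAT motif as TTCCNGGAA and the Esrrb motif as TCAAGGTCA. A GC box stood in the windows of 8 of 28 falling genes (28.6%) and of 16 of 18 rising genes (88.9%), beside 71.5% of 8353 genes that reached 5 FPKM and 38.2% of all 27025 genes with a window. CG pairs were counted per gene, in the window with the most of them where a gene had several. The median number was 9.5 in falling and 29 in rising genes, so the windows differed in CG content as a whole, and GC boxes hold CG pairs. The median was 23 CG pairs in the genes that reached 5 FPKM. KRAB genes had a GC box in 40.3% and a median of 11 CG pairs, and genes without KRAB 71.4% and 23. The falling genes were mostly KRAB genes and the rising ones mostly not, so profile and protein class were not separated here. A CCAAT box was found in 64.3% of falling and 50% of rising genes (43.5% of the genes that reached 5 FPKM, 41.1% of all). The octamer was found in 2 falling genes, the E-box in 4 (14.3%), TATAAA in 3 (10.7%), the STAT letters in 1 and the Esrrb letters in 0. None of these 5 was found in a rising gene. In the same order, the shares were 1.496%, 12.3%, 8.34%, 1.425% and 0.347% of the genes that reached 5 FPKM. Over all genes with a window they were 1.97%, 8.09%, 15.7%, 1.35% and 0.466%. The E-box and TATAAA shares of the falling genes were thus near those of the genes that reached 5 FPKM. The windows of the 3 protein-coding genes with the largest falls named above and of Zfp467, the gene with the largest rise, are printed 5′ to 3′ because much of the text above turns on these genes, with capitals at each match on either strand and no match overlapping another. They lie at chr7:43177340-43177639 (plus strand, Zfp936), chr7:43606919-43607218 (plus, Zfp819), chr7:19577037-19577336 (plus, Zfp296) and chr6:48445041-48445340 (minus, Zfp467).
Zfp936: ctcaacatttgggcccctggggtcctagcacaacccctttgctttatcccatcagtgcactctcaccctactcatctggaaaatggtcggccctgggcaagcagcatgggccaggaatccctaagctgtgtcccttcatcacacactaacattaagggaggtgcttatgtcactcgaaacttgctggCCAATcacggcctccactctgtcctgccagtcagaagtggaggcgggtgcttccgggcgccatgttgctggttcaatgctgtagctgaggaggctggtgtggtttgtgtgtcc
Zfp819: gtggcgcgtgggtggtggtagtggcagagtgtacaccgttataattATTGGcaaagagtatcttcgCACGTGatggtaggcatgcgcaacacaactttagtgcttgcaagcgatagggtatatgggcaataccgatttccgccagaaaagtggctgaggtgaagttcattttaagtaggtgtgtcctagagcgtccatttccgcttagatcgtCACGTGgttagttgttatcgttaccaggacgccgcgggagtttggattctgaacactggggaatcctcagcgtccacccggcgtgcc
Zfp296: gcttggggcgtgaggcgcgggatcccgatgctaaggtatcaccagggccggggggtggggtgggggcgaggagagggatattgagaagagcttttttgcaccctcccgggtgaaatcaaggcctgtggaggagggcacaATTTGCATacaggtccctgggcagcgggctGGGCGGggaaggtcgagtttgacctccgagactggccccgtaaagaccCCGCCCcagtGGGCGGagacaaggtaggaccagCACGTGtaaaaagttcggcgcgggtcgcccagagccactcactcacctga
Zfp467: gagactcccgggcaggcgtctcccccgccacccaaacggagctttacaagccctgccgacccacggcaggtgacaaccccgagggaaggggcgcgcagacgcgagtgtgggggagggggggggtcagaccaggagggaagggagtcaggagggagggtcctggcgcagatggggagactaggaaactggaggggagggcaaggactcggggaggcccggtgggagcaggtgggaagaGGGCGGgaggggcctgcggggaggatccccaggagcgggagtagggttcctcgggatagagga
Zfp936 has a CCAAT box alone and 6 CG pairs. Zfp819 has 20 CG pairs, a CCAAT box (as ATTGG on this strand) and 2 E-boxes. Zfp296 differs from most of the falling group, with 19 CG pairs, 3 GC boxes, an octamer, the site bound by Oct4 and its relatives, and an E-box. Zfp467 has 1 GC box and 18 CG pairs, fewer than the median of the rising genes, so these 4 windows do not show the group difference in CG content. A match is only a run of letters, and binding was not measured here.

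The genes with a role in imprinting and retroelement control were 6 of the 200. Zfp57, which protects methylation at imprinting control regions, was at 139, 171, 83.5, 51.5, 51.0, 50.1 and 32.6 FPKM over the 7 timepoints, 4.28-fold lower at 96 h. Its partner in imprint maintenance, Zfp445, stayed between 10.9 and 16.7 FPKM. Zfp809, which recognises the primer binding site of proviruses, was at 16.4 FPKM at 0 h and 6.44 at 96 h, and Zfp568, a repressor of a placental Igf2 promoter, ranged from 21.9 to 44.3. Zfp932, which binds endogenous retroviruses, ranged from 12.5 to 24.6 FPKM, and its level is uncertain because 55.5% of its words stand in other genes, most of them in its close relative Gm15446. With Zfp819, 3 of the 6 genes were lower at 96 h and 0 higher, beside 13.8% of all genes in each direction. Of 20 cofactor genes of KRAB proteins, 1 was higher and 3 were lower at 96 h, the lower share being near that of all genes (13.8%), and the median log2 ratio was -0.23. Pphln1 was the higher one (12.6 and 39.0 FPKM) and Smarcad1, Morc3 and Fam208a were lower, the last of them, the TASOR subunit of the HUSH complex, at 15.6 and 3.54 FPKM. Trim28 was at 1297 FPKM at 0 h, 2024 at 24 h and 853 at 96 h, a change under 2-fold from 0 to 96 h.

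Among the 8 genes linked to pluripotency by other work, Zfp296 was lower and Zfp462 higher at 96 h, each a share near the 13.8% of all genes. Zfp462, a heterochromatin-associated factor with 33 fingers, was at 11.1, 23.7 and 24.6 FPKM at 0, 24 and 96 h. The other 6 stayed within 2-fold between 0 and 96 h. Zfp281, a factor that binds near pluripotency genes, went from 21.2 FPKM to 39.3 at 24 h and back to 19.5, and Zfp143, an activator of housekeeping promoters, from 15.0 to 8.74. Zfp217 ranged from 16.6 to 23.6 FPKM, Zfp219 from 26.0 to 46.6, Zfp706 from 32.9 to 61.3 and Zfp207 from 73.7 to 143 during withdrawal. Of the 10 genes that act on RNA, ribosomes or ubiquitin and SUMO transfer, Zfp326, a protein that couples transcription to splicing, was higher at 96 h (12 and 25.6 FPKM) and 0 were lower, a higher share near that of all genes (13.8%). Zfp36 (tristetraprolin), which marks AU-rich mRNAs for decay, was at 8.87 and 15.1 FPKM. Zfp622 and Zfp593, which take part in making the large ribosomal subunit, were at 28.2 and 32.6 FPKM and at 4.06 and 3.34 FPKM at 0 and 96 h, the second being uncertain because 64.5% of its words stand in another gene. Zfp598, the ubiquitin ligase of collided ribosomes, was at 33 and 25.7, the SUMO ligase Zfp451 at 18.5 and 17.5, and the ubiquitin ligase Zfp91 at 17.2 and 21.4. Zfp346, which binds double-stranded RNA, was at 15.2 and 15.1, Zfp830 at 17.1 and 14.4, and Zfp106 at 103 and 71.9 FPKM.

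Of 11 developmental regulators, Zfp423, Zfp608 and Zfp185, a LIM domain protein of the actin cytoskeleton, were higher at 96 h, and 0 were lower, beside 13.8% of all genes in each direction. Zfp185 was at 3.71 FPKM at 0 h and 11.4 at 96 h. Zfp503 (chr14:21983959-21989601) and Zfp703 (chr8:26977325-26981461), related NET family corepressors of limb and brain development, showed the deepest transient falls. Zfp703 was at 1.95, 0.137, 0.152, 0.144, 0.311, 0.442 and 2.58 FPKM, and Zfp503 at 0.978, 0.11, 0.13, 0.0919, 0.144, 0.136 and 0.984. Both were low at every timepoint, and Zfp503 stayed under the 1 FPKM limit of a call. At the same 0 and 24 h the feeder marker Col1a1 was at 229 and 21 FPKM and the 11 fibroblast markers summed to 799 and 74.3. Whether RNA of other cells had a part in the 2 genes' values was not tested. The third of the deepest transient falls was Zfp800, at 3.9 FPKM at 0 h, 1.04 at 36 h and 5.85 at 96 h. Zfp516, known from brown fat, had the same shape, at 12.1, 3.92 (48 h) and 12.1 FPKM, and Zfp704 was at 16.3, 6.39 (48 h) and 13.1. Zfp839 was at 5.29, 1.75 (48 h) and 4.94. The largest transient rises were in Zfp658, from 1.48 FPKM to 5.04 at 24 h and 1.21 at 96 h, in Zfp365, a centrosomal protein, from 3.65 to 9.63 at 48 h and 3.5, and in Zfp532, from 15.1 to 35.5 at 24 h and 11.3. Zfp532 shares 36.8% of its words with other genes. Zfp609 (9.39 and 16.2 FPKM), Zfp335 (5.52 and 4.68, with 20.2% of its words shared) and Zfp292 (14.6 and 7.9) did not change by 2-fold from 0 to 96 h.

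Re-seeding at 0 h in serum/LIF –dox, against the 0 h cells in 2i/LIF, asks how the medium and 48 h of further culture move these genes without withdrawal. There were 12 genes higher (all genes 9.48%) and 9 lower (all genes 7.88%). Zfp423 (1.22 and 8.35 FPKM), Zfp467 (0.948 and 5.73) and Zfp36 (8.87 and 29.8) had the largest rises. Zfp57 was higher too, at 139 and 287 FPKM. Zfp36 stood at between 18.5 and 36.8 FPKM in all 8 re-seeded conditions and at no more than 18.0 in the 7 withdrawal timepoints. The largest falls were in Zfp503 (0.978 and 0.0392 FPKM), Zfp703 (1.95 and 0.178) and Zfp26 (9.84 and 3.79). The first pair moved with the fibroblast markers, whose sum was 799 FPKM at 0 h and 6.65 after re-seeding, and the part of other cells was not tested. Depth also differed, at 31.7 and 99.8 steps for a 2 kb gene at 1 FPKM.

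Within the –dox conditions, the order of re-seeding gave a second series that shares no condition with the withdrawal timepoints. Against re-seeding at 0 h, 9 genes were higher and 8 lower at 24 h (all genes 7.1% and 8.82%), 20 higher and 30 lower at 48 h (13.8% and 14%), and 27 higher and 43 lower at 96 h (18.8% and 19.5%). KRAB genes made 31 of the 43 lower genes at 96 h, 34.8% of their 89, with a median log2 ratio of -0.55. Genes without KRAB made 22 of the 27 higher ones, with a median of 0.09. That was 20.2% of their 109, near the 18.8% of all genes, while 5.62% of the KRAB genes were higher. Zfp936 was at 8.22, 11.6, 2.22 and 0.0982 FPKM after re-seeding at 0, 24, 48 and 96 h, Zfp640 at 14.8, 13.8, 4.78 and 0.756, and Zfp819 at 5.11, 4.05, 0.653 and 0.0352. Zfp57 was at 287, 89.6, 62.1 and 18.4. Zfp534 (chr4:147673502-147702553), at 15.4, 18.5, 4.55 and 0.507 FPKM, and Zfp600 (chr4:146156824-146198755), at 8.22, 11.4, 1.06 and 0.266, took the same course, but 70.4% and 85.0% of their words stand in other genes. Zfp503 and Zfp703 reached 6.64 and 15.1 FPKM in the 96 h –dox cells, their highest values. There Col1a1 was at 33.2 and Col1a2 at 86.0 FPKM. Of the 11 fibroblast markers, 6 were higher there than after re-seeding at 0 h –dox and 1, Thy1, was lower. Others stayed low, with Dcn at 0.791 FPKM and Lum at 0.0605. The part of other cells was not tested.

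**Figure D4:**
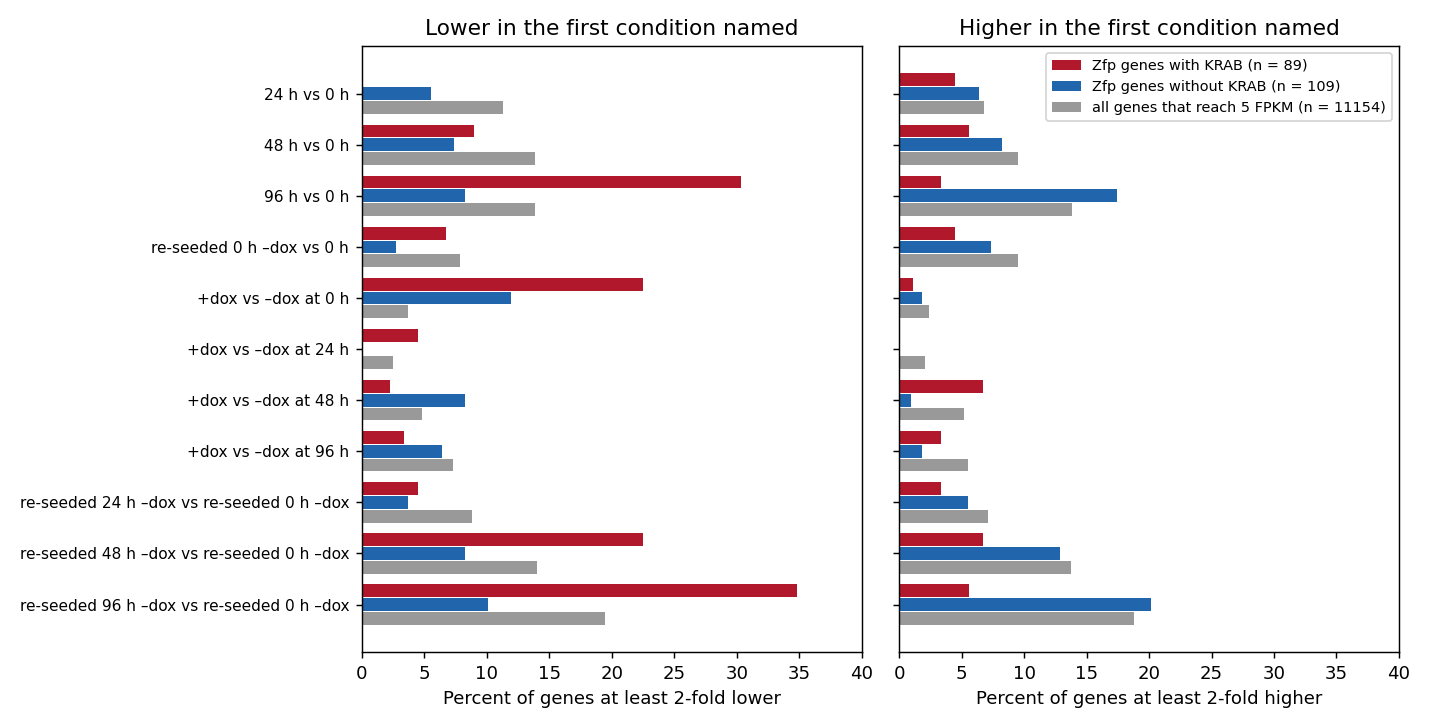
Percent of Zfp genes with KRAB (red, n = 89) and without KRAB (blue, n = 109), and of all genes that reached 5 FPKM (grey, n = 11154), that were at least 2-fold lower (left) or higher (right) in the first condition named. Among the comparisons drawn, which leave out 36, 60 and 72 h, the red bars exceed the grey ones among lower genes at 96 h (30.3% and 13.8%), in the re-seeded 48 and 96 h –dox conditions, with dox at 0 h (22.5% and 3.66%) and with dox at 24 h (4.49% and 2.47%), and stay under the grey ones among higher genes except with dox at 48 h (6.74% and 5.16%).

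Dox asks what OSKM adds to the medium at each time of re-seeding. In cells re-seeded at 0 h, 34 of the 200 genes (17%) were lower with dox and 3 higher, where 3.66% of all genes were lower and 2.4% higher. The median log2 ratio was -0.31 over the 200 genes and 0.06 over all genes, and 144 of the 200 were below their –dox value. The fall took in both classes. Of the KRAB genes 20 of 89 (22.5%) were lower, of the genes without KRAB 13 of 109 (11.9%), and the pseudogene Zfp125 was the remaining one. The other 31 KRAB genes were lower in 7 and higher in 2, and the 207 other C2H2 genes without KRAB lower in 11 and higher in 5. Most of the 34 genes were low: their median was 5.31 FPKM –dox and 2.17 +dox, and 18 of them remain when at least 5 FPKM is asked of the higher value. In 26 of the 34 the +dox value was also at least 2-fold below that of the 0 h cells in 2i/LIF. None of the 20 KRAB cofactors and none of the 8 pluripotency markers passed the 2-fold limit in this comparison. The steps behind a 2 kb gene at 1 FPKM were alike, at 99.8 –dox and 85.9 +dox. Levels differed between the sets. The –dox median was 6.02 FPKM over KRAB genes, 10.1 over genes without KRAB and 14.4 over all genes that reached 5 FPKM. The part of level in the shares was not tested.

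The largest falls were in Zfp459, Zfp296 and Zfp819. Zfp296 was at 61.9 FPKM –dox and 14.9 +dox, 4.16-fold lower. Zfp459 (chr13:67405709-67421418), a KRAB gene with 3 fingers, was at 8.18 and 1.83 FPKM, and Zfp819 at 5.11 and 1.29. Among the more abundant genes, chosen after their values were seen, Zfp428 was at 66.6 and 32.1 FPKM, Zfp532 at 37.2 and 18.0, Zfp958 at 18.1 and 7.51, and Zfp691 at 11.6 and 3.04. The 3 higher genes were Zfp365 (1.77 and 4.35 FPKM), Zfp932 (14.8 and 34.0) and Zfp672 (2.76 and 6.04). Zfp57 did not pass the limit, at 287 –dox and 341 +dox, its highest value of all conditions.

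At 24 h dox moved few of the genes, with 0 higher and 4 lower (all genes 2.05% and 2.47%). All 4 lower genes had KRAB: Zfp936 (11.6 and 4.58 FPKM), Zfp386 (5.44 and 2.26), Zfp534 (18.5 and 8.75) and Zfp946. The largest changes upward stayed under 2-fold, in Zfp365 (4.02 and 6.2 FPKM), Zfp771 (11.9 and 17.6) and Zfp931 (3.0 and 4.29).

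At 48 h, 7 genes were higher with dox (all genes 5.16%) and 11 lower (all genes 4.81%). Of the 7 higher genes 6 had KRAB and 9 of the 11 lower ones did not. As shares, 6.74% of KRAB genes were higher, near the 5.16% of all genes, and 2.25% were lower. Of the genes without KRAB, 0.917% were higher and 8.26% lower. The largest rises were in Zfp459 (0.872 and 2.65 FPKM), Zfp600 (1.06 and 3.07) and Zfp819 (0.653 and 1.9), all from about 1 FPKM or less. Zfp57 stood much higher, at 62.1 FPKM –dox and 154 +dox, and Zfp296 was at 8.92 and 19.3. Zfp184 and Zfp941 were the others. In the same pair of conditions 5 of the 8 pluripotency markers were higher with dox: Pou5f1, Sox2, Esrrb, Tfcp2l1 and Zfp42. Esrrb was at 8.31 and 56.2 FPKM. Pou5f1 (Oct4) and Sox2 are also transgenes that dox switches on, and the part of transgene RNA in their values was not tested. The lower genes were led by Zfp423 (20.8 and 5.48 FPKM), Zfp386 (4.74 and 1.72) and Zfp768 (5.51 and 2.16), and included Zfp467 (24.2 and 10.1) and Zfp608 (8.22 and 3.83), 3 of the genes with the largest rises under withdrawal. The median log2 ratio was 0.16 over the KRAB genes and -0.14 over the genes without KRAB. With at least 5 FPKM asked of the higher value, 3 genes were higher and 6 lower.

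**Figure D5:**
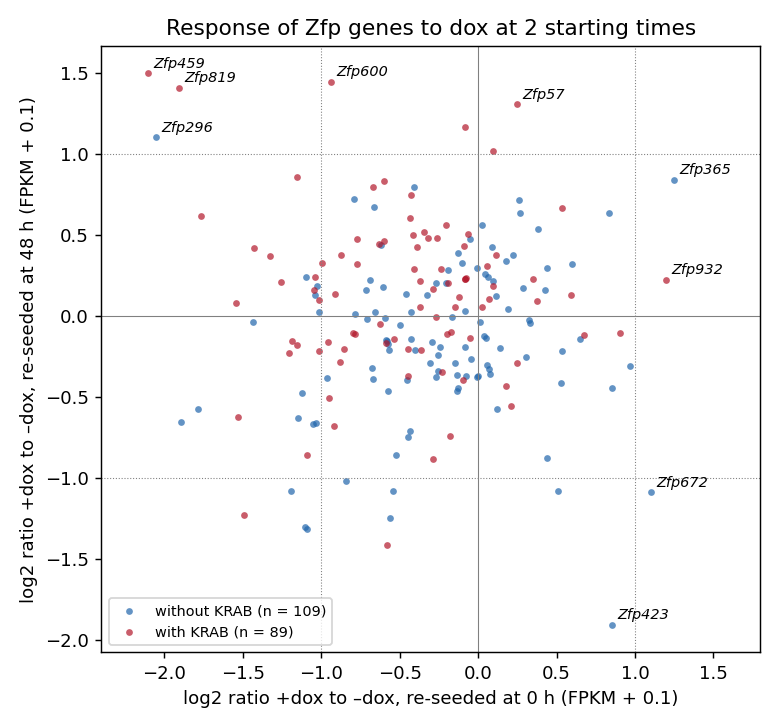
log2 ratio of +dox to –dox for Zfp genes with (red) and without (blue) KRAB in cells re-seeded at 0 h (x axis) and at 48 h (y axis), with 0.1 FPKM added and dotted lines at 2-fold. Zfp459, Zfp296 and Zfp819 lie at the upper left, lower with dox at 0 h and higher at 48 h, Zfp672 lies at the lower right, and most other points lie left of 0.

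At 96 h, 5 genes were higher with dox (all genes 5.48%) and 11 lower (all genes 7.32%). Zfp365 (0.838 and 4.43 FPKM), Zfp692 (4.0 and 11.3) and Zfp57 (18.4 and 48.0) had the largest rises. Zfp703 (15.1 and 1.79 FPKM), Zfp503 (6.64 and 1.68) and Zfp386 (10.2 and 2.84) had the largest falls. Col1a1, at 33.2 and 3.47 FPKM, and Col1a2, at 86.0 and 13.2, were lower in the same pair. The sum of the 11 fibroblast markers, most of it from these 2 genes, was 149.9 –dox and 24.8 +dox. In all, 6 of the 11 were lower with dox and 1, Dcn, was higher, at 0.791 and 3.64 FPKM. The part of other cells in the 2 NET family genes was not tested. Zfp296, at 2.19 and 3.68 FPKM, and Zfp819, at 0.0352 FPKM –dox and listed at 0 +dox, did not pass the limit at this time, and Zfp936 was at 0.0982 and 0.0416.

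Across the 4 times of re-seeding, 143 of the 200 genes passed the 2-fold limit with dox at no time, 41 at 1 time and 16 at 2 or more. Zfp936 was lower at 0, 24 and 48 h and Zfp386 at 24, 48 and 96 h, and 0 genes were lower at all 4 times. Of the 34 genes lower at 0 h, 2 were also lower at 24 h, 2 at 48 h and 2 at 96 h, and 3 were higher at 48 h. Over all genes, the shares lower with dox at these 3 times were 2.47%, 4.81% and 7.32%, and 5.16% were higher at 48 h. Overlaps between times over all genes are not given here, so these counts describe the 200 genes alone.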

How the data were processed

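PolyA RNA was sequenced from 30 samples in 15 conditions, 2 per condition. The authors aligned reads to mm10 with TopHat 2.0.14, kept Gencode M4 transcripts of at least 200 bp, and estimated levels with Cufflinks 2.2.1 and Cuffdiff. The deposited FPKM table holds 22477 genes with 1 combined value per condition, so depth in reads is unknown, and neither errors nor tests could be had. Its columns with the authors' own response calls and clusters were not used, and 27 entries whose names are dates were not matched to genes.

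The plain ratio of 2 conditions was called at 2-fold where the larger value was 1 FPKM or more. Medians use log2 after adding 0.1 FPKM, which understates changes of low genes. The background is the 11154 genes that reached 5 FPKM in any condition. Genes, list genes and profile classes were chosen with earlier results of these data known. Named genes are the 3 largest rises and falls of each comparison, the members of the lists, the highest medians and the largest transient changes; Zfp428, Zfp532, Zfp958 and Zfp691 with dox at 0 h, and other names filling counts of 5 or fewer, were chosen after their values were seen. KRAB boxes, fingers and shared 50-base words come from Gencode M21 on mm10, where 94.9% of the table's genes were found, and not from M4. Promoter windows come from RefSeq. Python 3.11.15, numpy 2.4.6, pandas 2.3.3 and matplotlib 3.10.9 were used, and the code was tested on simulated data. Other fold limits, minimums, added values, scalings and member sets were tried.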

Additional observations from a re-analysis of the deposited data

Results flagged for a closer look

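Dox changed 4 of the genes in opposite directions at 0 and at 48 h, each by at least 2-fold. The share of all genes that did so is not given here. Zfp296, Zfp459 and Zfp819 were lower with dox in cells re-seeded at 0 h and higher in cells re-seeded at 48 h, and their log2 ratios at the 2 times differed by 3.16, 3.6 and 3.32. At 48 h Zfp459 was at 0.872 FPKM –dox and 2.65 +dox, Zfp819 at 0.653 and 1.9, and Zfp296 at 8.92 and 19.3. The calls of Zfp459 and Zfp819 at 48 h are lost when 5 FPKM is asked of the higher value or when 1 FPKM is added to each value. Zfp672 was higher at 0 h (2.76 FPKM –dox and 6.04 +dox) and lower at 48 h (5.49 and 2.53), a difference of 2.19. With 1 combined value per condition, the differences were not tested. Depth differed between these times, at 99.8 and 85.9 steps for a 2 kb gene at 1 FPKM in the 0 h pair and 30.9 and 31.0 in the 48 h pair, and its part in the result was not tested.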

How the results depend on the processing

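No paired analysis was possible because the table holds 1 combined value per condition; for the same reason leaving out a replicate was not run. Shares are percents of the Zfp genes, higher then lower. With a 1.5-fold limit they were 16.5 and 11.5 at 24 h, 18.5 and 18 at 48 h, 20 and 29.5 at 96 h, 11.5 and 17 for serum/LIF, and 6 and 33, 0.5 and 8.5, 10.5 and 12, and 9.5 and 14.5 with dox at 0, 24, 48 and 96 h. Stable, rising, transiently rising and transiently falling profiles held 16, 16, 14 and 10.5. With a 3-fold limit they were 2 and 0.5, 3.5 and 4, and 5 and 9 at 24, 48 and 96 h, 2 and 0.5 for serum/LIF, and with dox 0 and 4, 0 lower at 24 h, 0.5 and 0.5, and 0.5 and 2. Stable, falling, rising, transiently rising, transiently falling and other profiles held 75, 9, 5, 0.5, 2 and 8.5. With 1 FPKM added, 1.5 were lower at 24 h and 1.5 for serum/LIF, and with dox 0.5 and 9, 1 lower at 24 h, 1 and 2, and 1.5 and 2.5. With 5 FPKM asked of the higher value, 1.5 were lower for serum/LIF, 9 lower with dox at 0 h, 1.5 and 3 at 48 h and 1.5 higher at 96 h. With genes that reached 10 FPKM alone, 1.65 were lower for serum/LIF, 0.826 higher with dox at 0 h and 1.65 higher at 96 h. With KRAB genes alone, 0 were lower at 24 h, 3.37 and 30.3 changed at 96 h, and with dox 4.49 were lower at 24 h, 6.74 and 2.25 changed at 48 h and 3.37 were lower at 96 h, while 27, 3.37 and 1.12 had falling, rising and transiently falling profiles. The 190 other values of these shares stayed within 1.5 times the reported one, among them all under no minimum, median-ratio scaling, a 2 FPKM entry limit and without genes that share sequence. Of the values of single genes 25 moved, 119 did not and 0 reversed. The causes were not tested.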
